A study of Mus musculus with 9 samples.

Results

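The 3 heterochromatin protein 1 (HP1) genes, Cbx1, Cbx3 and Cbx5, and 7 genes for enzymes that remove methyl groups from lysine 9 of histone H3, Kdm1a, Kdm3a, Kdm3b, Kdm4a, Kdm4b, Kdm4c and Phf8, were followed through 9 RNA sequencing libraries of mouse blood stem and progenitor cells. These 10 genes were chosen by name out of 37882 in the deposited table. The cells were the LSK fraction of bone marrow, which lacks the lineage markers Mac1, Gr1, B220, CD3e and Ter119 and carries Sca1 and cKit. All mice were 6 to 8 weeks old, had a B6/129 background, carried the doxycycline-dependent activator rtTA in Rosa26, and drank water with doxycycline (2 mg/ml) and sucrose (10 mg/ml). The 3 rtTA mice carried no further transgene. In the 3 K9M mice, Col1a1 also held histone H3.3 with lysine 9 changed to methionine, and in the 3 K36M mice it held H3.3 with lysine 36 changed to methionine. A group with an unmutated H3.3 transgene was not part of the design, so an effect of the mutation and one of carrying an H3.3 transgene cannot be told apart. Per the design text of the series, no mouse gave more than 1 library.

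HP1 proteins bind methylated lysine 9 of histone H3 through a chromodomain and pair with each other and with partner proteins through a chromoshadow domain, which is how methylated chromatin is compacted and kept silent. The demethylases remove the mark that HP1 reads. KDM3 enzymes act on the mono- and dimethylated forms, KDM4A, KDM4B and KDM4C on the di- and trimethylated forms and also on lysine 36, PHF8 on the mono- and dimethylated forms, and KDM1A (LSD1) mainly on lysine 4 and in some settings on lysine 9. In blood progenitors KDM1A is known as a partner of the repressors GFI1 and GFI1B. Histones with methionine in place of lysine are known to lower methylation of that lysine on the cell's other histones, so the question here is whether the readers and erasers of the mark were expressed differently.

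None of the 10 genes was called in any of the 3 comparisons, at an adjusted p under 0.05 with limma and Benjamini-Hochberg adjustment over 12926 tested genes. In K9M against rtTA the share of all tested genes called was 0.116%, in K36M against rtTA 1.5% and in K36M against K9M 2.52%. At an unadjusted p under 0.05 the number of members was 0 in K9M against rtTA, where 7.11% of all genes passed and no member had K9M and rtTA libraries that did not overlap, beside 12.5% of all genes. It was 2 in K36M against rtTA (19.1% of all genes), with Phf8 higher and Kdm4b lower, and 0 in K36M against K9M (18.8% of all genes). The 2 sets of K36M and K9M values against rtTA share their control libraries. The median log2 fold change of the 10 genes was 0.04 in K9M and -0.02 in K36M against rtTA and -0.04 in K36M against K9M, beside 0.0072, 0.0153 and 0.0079 over all tested genes. With 3 mice a group, the 95% confidence intervals of the 30 fold changes all lay inside 2-fold in either direction, the farthest limits being 0.85 for Phf8 and -0.79 for Kdm4b, both in K36M against rtTA.

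**Figure D1:**
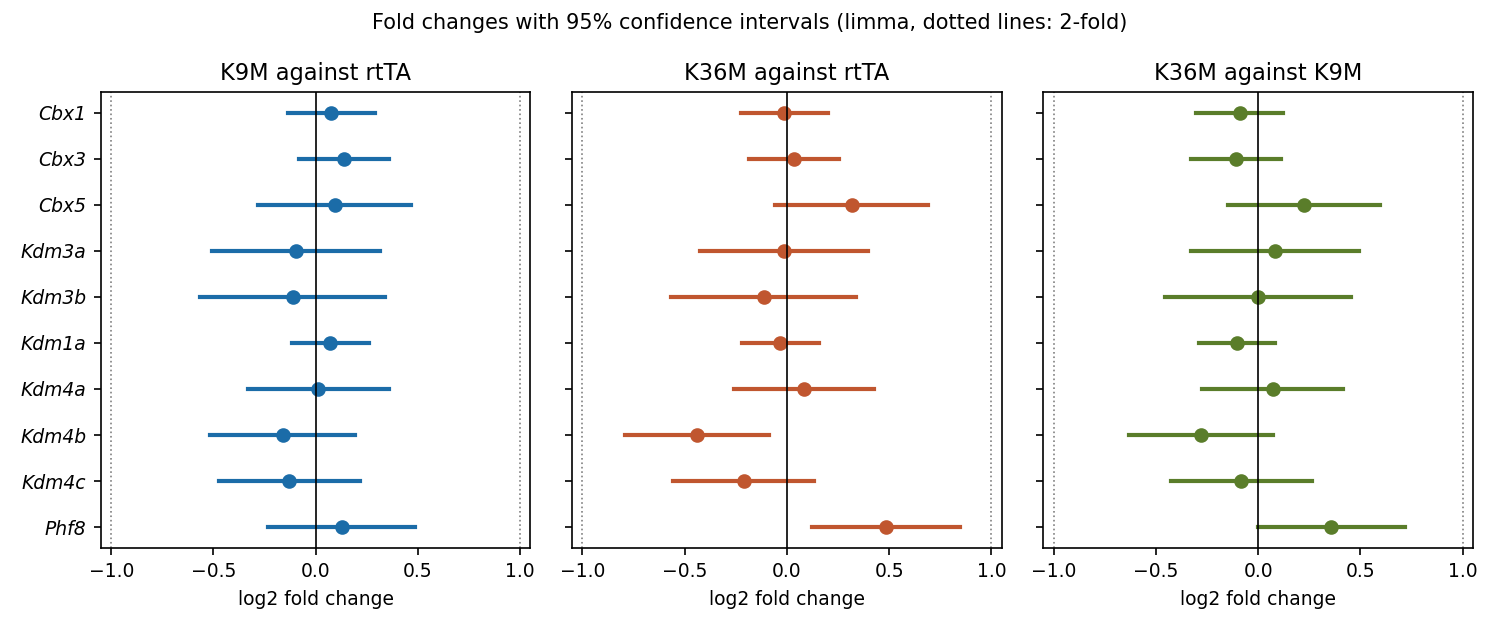
Log2 fold change on the log2(RPKM + 0.5) scale (horizontal axis) of each gene (vertical axis) in the 3 comparisons. Points are limma estimates, bars 95% confidence intervals and dotted lines 2-fold changes. Only the bars of Kdm4b and Phf8 in K36M against rtTA leave out 0, and neither gene passed after adjustment.

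Depth, read from the steps of the lowest values, was about 15870000 to 50320000 reads per library, and even the least covered member value, Kdm4c in rtTA replicate 1, rested on about 449 reads. The positive sort markers were present in every library, with Kit at 53.3 to 102.5 RPKM and Ly6a (Sca1) at 119 to 292 RPKM. Cd34 stood at 286 to 432 RPKM. Among genes of the markers sorted against, Cd3e did not exceed 0.168 RPKM, but RNA of others was present. Itgam (Mac1) stood at 2.56 to 15.4 RPKM and Ly6g (Gr1) at 0.95 to 42.1 RPKM over the 9 libraries. RPKM scale reads to transcript length and library size. The summed level of 10 granulocyte markers was 726 to 6415 RPKM in rtTA, the highest being replicate 3, 453 to 1092 RPKM in K9M and 181 to 418 RPKM in K36M. For 7 erythroid markers it was 35.9 to 65.7, 49.2 to 82.1 and 142 to 250.5 RPKM. The higher sum in K36M came from 1 beta-globin gene, Hbb-bt, since the other 6 summed to 26.1 to 51.3, 40.8 to 58.4 and 40.6 to 57.3 RPKM. For 7 B lineage markers the sum was 31.9 to 44.9, 17.7 to 22.2 and 28.0 to 32.8 RPKM. Since these are bulk samples, fewer cells of a type and less RNA per cell cannot be told apart. The part of these other cells in the members' values was not tested.

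Levels per kilobase spanned a wide range. Cbx3 was highest at 150.9 RPKM (mean of 9 libraries), above 96.8% of tested genes, and was followed by Cbx1 at 35.4, Kdm1a at 24.0, Cbx5 at 20.5, Kdm3b at 20.1, Kdm3a at 13.4, Kdm4a at 12.0, Phf8 at 6.04, Kdm4b at 5.71 and Kdm4c at 5.38 RPKM. Ranges over the 9 libraries did not overlap between Cbx3 and Cbx1, between Cbx1 and Kdm1a, or between Kdm4a and Phf8. The other neighbours in this order overlapped. Cbx5 and Kdm3b, for example, differed by a ratio of 1.02, and Phf8, Kdm4b and Kdm4c could not be ordered beyond their spread. The most even gene was Kdm1a, with a coefficient of variation of 4.75% over the 9 libraries, and the least even was Phf8 at 22.3%.

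**Figure D2:**
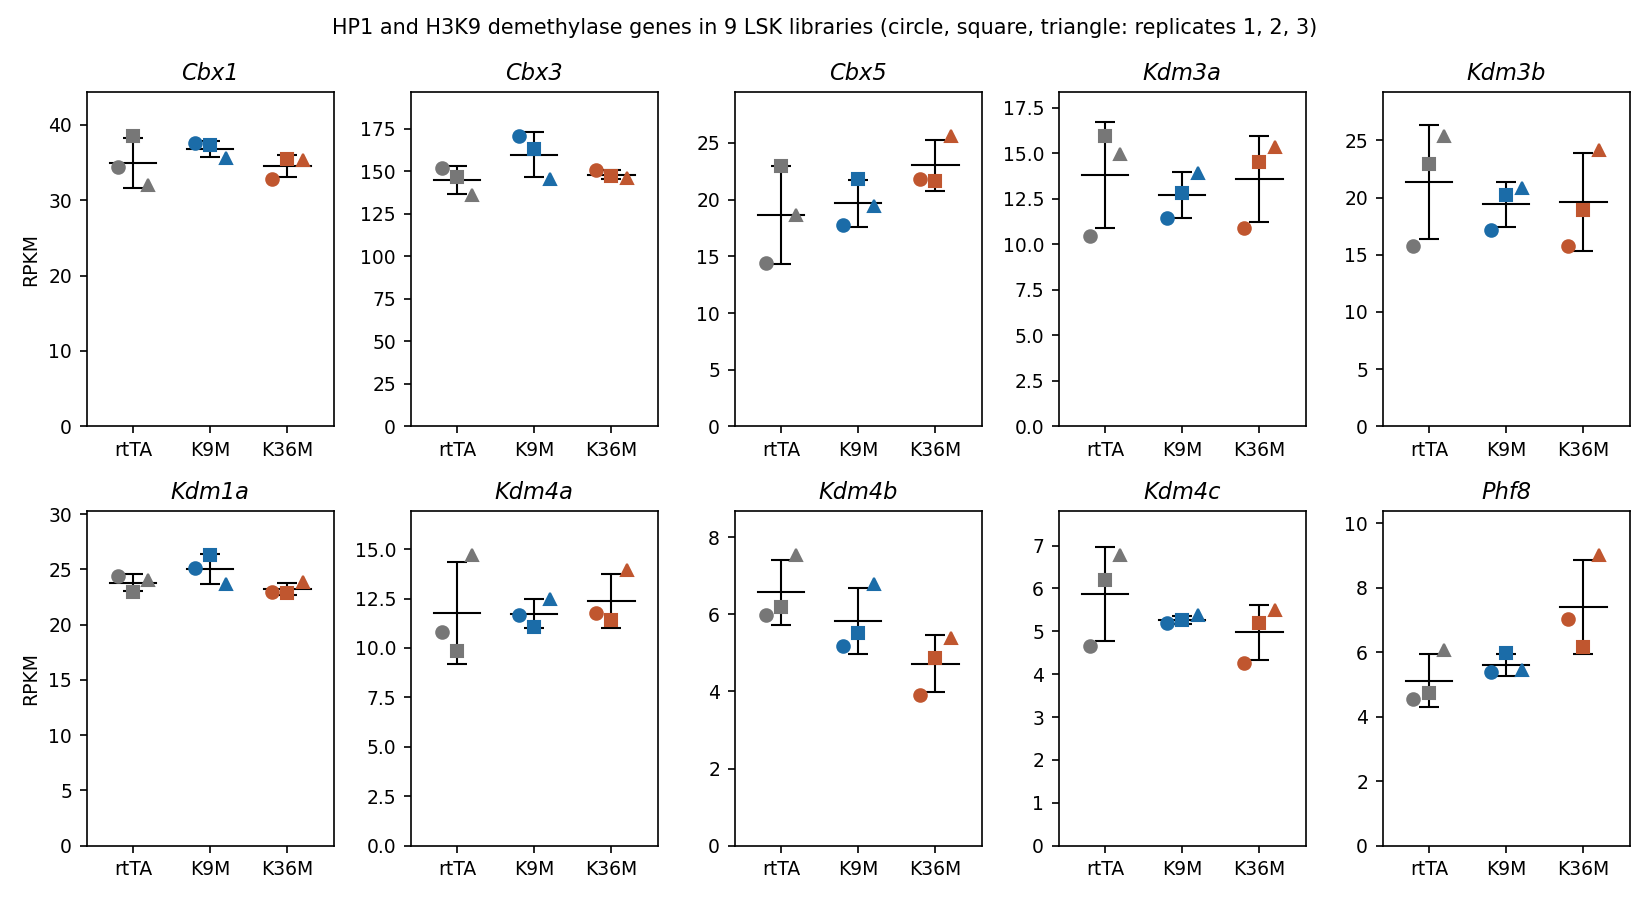
RPKM (vertical axes, starting at 0 and scaled to each gene) of the 10 genes in the rtTA, K9M and K36M libraries. Circles, squares and triangles are replicates 1, 2 and 3, horizontal lines are group means and error bars are 1 SD (n = 3). The K36M points lie above all rtTA points for Phf8 and below all of them for Kdm4b, while the groups overlap for the other 8 genes in that comparison.

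Among the readers, Cbx3 (ENSMUSG00000029836), which encodes HP1γ, lies on chromosome 6 from 51470360 to 51483704 on the plus strand of mm10. It stood at 152, 147 and 136 RPKM in rtTA replicates 1 to 3, at 171, 163 and 145 RPKM in K9M and at 151, 147 and 146 RPKM in K36M. The groups overlapped, and the fold changes were 0.14 in K9M (SE 0.098, limma adjusted p = 0.796) and 0.03 in K36M (adjusted p = 0.893). Cbx3 supplied 72.9% of the summed RPKM of the 3 HP1 genes on average, with a range of 70.4% to 75.7% over the libraries.

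Cbx3 was also the member with most near-identical copies in the genome. A search of GENCODE M21 transcripts found 13 copies of its 552-base coding sequence (identity of 90% or more across 300 bases or more), of which 6 were in the deposited table and only Cbx3-ps6 passed the filter. Cbx3-ps6 is a processed pseudogene on chromosome 14 (73955000 to 73955551, minus strand), listed in the table as Gm6984, and it differed from Cbx3 by the single substitution A390G, counted from the first base of the coding sequence. The stretch from base 350 to base 430 is printed to show how little sets the pair apart, with the differing base in capitals.
Cbx3: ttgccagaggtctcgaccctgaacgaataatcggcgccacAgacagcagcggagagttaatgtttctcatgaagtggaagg
Cbx3-ps6: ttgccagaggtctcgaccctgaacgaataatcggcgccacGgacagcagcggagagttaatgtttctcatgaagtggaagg
The copy stood at 13.6 to 24.9 RPKM, but over its short length this came to between 0.816% and 1.59% of the reads of the pair. That share counts all 5992 exonic bases of Cbx3, while the copy matches only the 552 coding bases. Per kilobase the copy stood higher beside Cbx3, for example at 23.8 against 136 RPKM in rtTA replicate 3. Adding the copy's reads to Cbx3 left it uncalled in each comparison.

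Cbx1 (ENSMUSG00000018666, chromosome 11, 96789127 to 96808640, plus strand) encodes HP1β. It stood at 34.3, 38.6 and 32.0 RPKM in rtTA, 37.5, 37.3 and 35.6 RPKM in K9M and 32.8, 35.5 and 35.3 RPKM in K36M. All K36M values lay below all K9M values, which was so for 27.9% of tested genes in one direction or the other, and the log2 difference was -0.09 (SE 0.094, limma adjusted p = 0.658). Against rtTA both mutant groups overlapped the controls.

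Cbx5 (ENSMUSG00000009575, chromosome 15, 103191544 to 103239816, minus strand) encodes HP1α. Its RPKM was 14.4, 23.0 and 18.6 in rtTA, 17.8, 21.9 and 19.4 in K9M and 21.8, 21.7 and 25.7 in K36M. The K36M libraries were at the upper end, but rtTA replicate 2 was higher than K36M replicates 1 and 2. The fold change in K36M against rtTA was 0.32 (SE 0.17, 95% interval -0.06 to 0.69, limma adjusted p = 0.337). It rested in part on rtTA replicate 1, the lowest library, and without it was 0.15 (adjusted p = 0.589). Cbx5 made up 11.2% ± 1.03 (SD, n = 3) of the HP1 sum in the K36M group, beside 9.4% ± 2.0 in the rtTA and 9.12% ± 1.10 in the K9M group, and the rtTA and K36M ranges overlapped.

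Both Cbx3 and Cbx5 start close to a highly expressed gene on the opposite strand. Hnrnpa2b1, which encodes an RNA-binding protein, starts 466 bases from Cbx3 and had a mean of 275.5 RPKM. Hnrnpa1, of the same protein family, starts 616 bases from Cbx5 and had a mean of 641 RPKM. Neither was called in any comparison, and across the 9 libraries, which all genes share, the correlation of log2 values was 0.345 for Cbx3 and Hnrnpa2b1 and -0.125 for Cbx5 and Hnrnpa1.

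Kdm1a (ENSMUSG00000036940, chromosome 4, 136550540 to 136602723, minus strand) varied least of the erasers. It stood at 24.4, 22.9 and 24.0 RPKM in rtTA, 25.1, 26.3 and 23.7 RPKM in K9M and 23.0, 22.9 and 23.9 RPKM in K36M. The 3 groups overlapped, with fold changes of 0.07 in K9M and -0.03 in K36M against rtTA (SE 0.083 for both) and 95% intervals that reached no farther than 0.26 and -0.22.

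The KDM3 enzymes were expressed at a steady ratio. Kdm3a (ENSMUSG00000053470, chromosome 6, 71588972 to 71632990, minus strand), known for its part in the hypoxia response and in male germ cells, stood at 10.5, 16.0 and 15.0 RPKM in rtTA, 11.4, 12.8 and 13.9 RPKM in K9M and 10.9, 14.5 and 15.4 RPKM in K36M. Kdm3b (ENSMUSG00000038773), its close relative, stood at 15.8, 22.9 and 25.4 RPKM in rtTA, 17.2, 20.2 and 20.8 RPKM in K9M and 15.7, 18.9 and 24.2 RPKM in K36M. In both genes replicate 1 was the lowest library of every group. The range inside each group was also wider than any difference between group means. Kdm3a made up 37.1% to 43.4% of the pair's summed RPKM. The levels of the pair had a correlation of 0.911 over the 9 libraries, the highest among members. This was not particular to the pair, since Kdm3b and Kdm4c had 0.894. Genes outside the members reached higher values, such as Zfp157 with Kdm3a (0.987) and Nipbl with Kdm3b (0.984). Fold changes of the pair lay between -0.11 and 0.08 in the 3 comparisons (limma adjusted p from 0.801 to 0.999). Kdm3b shares 3468 exonic bases with Gm26538, a long noncoding RNA on the opposite strand, which did not exceed 0.203 RPKM.

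The KDM4 genes differed in how they lay across the groups. Kdm4a (ENSMUSG00000033326, chromosome 4, 118136957 to 118180043, minus strand) stood at 10.8, 9.83 and 14.7 RPKM in rtTA, 11.7, 11.1 and 12.5 RPKM in K9M and 11.8, 11.4 and 14.0 RPKM in K36M, and the groups overlapped. Kdm4c (ENSMUSG00000028397, chromosome 4, 74242497 to 74405860, plus strand) stood at 4.65, 6.19 and 6.78 RPKM in rtTA, 5.19, 5.26 and 5.37 RPKM in K9M and 4.26, 5.19 and 5.49 RPKM in K36M, again with overlap. The fold changes in K36M against rtTA were 0.08 for Kdm4a and -0.21 for Kdm4c (SE 0.15 for both, limma adjusted p = 0.81 and 0.498).

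Kdm4b (ENSMUSG00000024201, chromosome 17, 56326062 to 56402870, plus strand) had the largest negative difference of the 10 genes. It encodes a demethylase that is itself a known hypoxia target. It stood at 5.98, 6.19 and 7.54 RPKM in rtTA, 5.18, 5.52 and 6.78 RPKM in K9M and 3.91, 4.87 and 5.38 RPKM in K36M. All K36M values were below all rtTA values, while K9M overlapped both. Kdm4b and Phf8 were the 2 of 10 members whose K36M and rtTA libraries did not overlap, beside 22.3% of all tested genes. The log2 difference was -0.44 (SE 0.16, 95% interval -0.79 to -0.09, unadjusted p = 0.0199, limma adjusted p = 0.178). Without rtTA replicate 3, the library with most granulocyte marker RNA, it was -0.34 (limma adjusted p = 0.356). Leaving out K36M replicate 1 gave -0.32 (adjusted p = 0.469). It was larger without rtTA replicate 1, at -0.50 (adjusted p = 0.198), and without K36M replicate 3, at -0.53 (adjusted p = 0.243). In the fit to all 9 libraries K9M against rtTA gave -0.16 and K36M against K9M -0.28, both uncalled (adjusted p = 0.858 and 0.386).

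As shares of the summed RPKM of the 3 KDM4 genes, which cancels differences common to them, Kdm4b made up 27.2% ± 1.1 (SD, n = 3) of the rtTA, 25.4% ± 2.0 of the K9M and 21.3% ± 1.59 of the K36M sum. For Kdm4a these shares were 48.5% ± 3.64, 51.4% ± 1.3 and 56.1% ± 2.98. The rtTA and K36M ranges were 26.0% to 27.9% and 19.6% to 22.7% for Kdm4b, and 44.3% to 50.7% and 53.1% to 59.1% for Kdm4a. The 3 shares of a library make up a whole, so a lower share of Kdm4b raises the others. The RPKM of Kdm4a itself overlapped between rtTA and K36M, with a fold change of 0.08. How often such shares separate over all genes was not computed. These shares were not tested.

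Phf8 (ENSMUSG00000041229, chromosome X, 151520672 to 151633859, plus strand), whose human counterpart is mutated in a form of X-linked intellectual disability, had the largest positive difference of the 10 genes. It stood at 4.56, 4.73 and 6.07 RPKM in rtTA, 5.40, 5.98 and 5.43 RPKM in K9M and 7.04, 6.15 and 9.02 RPKM in K36M. All K36M values lay above all values of the other groups, though K36M replicate 2 exceeded rtTA replicate 3 only narrowly. The fold change in K36M against rtTA was 0.49 (SE 0.16, 95% interval 0.12 to 0.85, unadjusted p = 0.0138, limma adjusted p = 0.153), and in K36M against K9M it was 0.36 (adjusted p = 0.27). Leaving out K36M replicate 3, the highest library, gave 0.34 against rtTA (adjusted p = 0.357), and leaving out rtTA replicate 3 gave 0.60 (adjusted p = 0.172). In K9M against rtTA, where the groups overlapped, it was 0.13 (adjusted p = 0.891). As Phf8 is X-linked, sex was checked: Xist, expressed from an inactive X, was at 0.456 to 1.30 RPKM and the Y-linked Ddx3y at 10.9 to 18.5 RPKM in all 9 libraries. Every library thus expressed the Y-linked gene.

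Promoters of Cbx5 and Phf8 are shown because these genes had the most positive fold changes in K36M against rtTA, although neither was called. RefSeq start windows (GRCm38.p6, 250 bases before to 50 bases after the start) were at hand for 8 of the 10 genes. The 250 bases before each start are printed 5′ to 3′ on the gene's strand, with motif matches in capitals.
Cbx5, chr15:103239853-103240102, minus strand: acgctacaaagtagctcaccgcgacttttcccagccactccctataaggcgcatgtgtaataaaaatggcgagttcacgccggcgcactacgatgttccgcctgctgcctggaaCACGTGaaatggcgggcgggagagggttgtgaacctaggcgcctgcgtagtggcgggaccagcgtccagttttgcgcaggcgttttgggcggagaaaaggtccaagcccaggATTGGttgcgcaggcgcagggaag
Phf8, chrX:151520422-151520671, plus strand: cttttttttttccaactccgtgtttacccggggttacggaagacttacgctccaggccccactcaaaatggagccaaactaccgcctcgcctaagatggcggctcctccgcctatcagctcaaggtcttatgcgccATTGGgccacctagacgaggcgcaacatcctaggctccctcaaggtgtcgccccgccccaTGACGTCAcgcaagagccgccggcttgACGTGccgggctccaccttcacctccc

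Both strands were searched for the CCAAT box, the ACGTG core of hypoxia elements and E-boxes, the CCGGAAG site of ETS factors and the cyclic AMP response element TGACGTCA. Both of these windows held CCAAT, read as ATTGG on the printed strand, a motif found in 37.4% of 32851 promoters, and both held ACGTG (19.6% of promoters). In Cbx5 the ACGTG match lies on both strands and overlaps itself as CACGTG. Phf8 also held TGACGTCA, which occurs in 1.79% of promoters. CCAAT was found in the windows of Kdm3a, Kdm1a and Kdm4a too, and none of the 8 windows held CCGGAAG (8.86% of promoters). Cbx3, Cbx5 and Kdm4c had 2 listed starts each and Kdm3a had 3. For these genes only the window nearest the GENCODE gene start was searched. The 300-base windows held between 22 and 34 CG pairs in Cbx1, Cbx3, Cbx5, Kdm3a, Kdm1a and Phf8, 13 in Kdm4a and 0 in Kdm4c, beside a median of 7 over all promoters. These matches describe letters in the window and say nothing of a factor's binding.

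In some members the same replicate number was lowest in all 3 groups. Kdm3a, Kdm3b, Kdm4b and Kdm4c were lowest in replicate 1 of all 3 groups, which held for 1751 of 12926 tested genes (13.5%). Kdm4a was lowest in replicate 2 of each group and Cbx3 in replicate 3, patterns whose share over all genes was not computed. In Cbx1, Cbx5, Kdm1a and Phf8 no replicate was lowest in every group. Of the 4 genes lowest in replicate 1 of all groups, Kdm3b, with 14095 exonic bases, is the longest member and Kdm3a has 8225. Kdm4c has 5823 and Kdm4b 4895, the shortest after Cbx1 with 4273. Cbx5 with 9006 and Phf8 with 9318 were lowest in replicate 1 of rtTA and K9M but not of K36M. The part of length in this pattern was not tested. Over 12898 genes with a length, the log2 level moved with exonic length differently from library to library, by -0.06 per doubling of length in rtTA replicate 1, -0.04 in K9M replicate 1 and -0.03 in K36M replicate 1, against 0.05 in rtTA replicates 2 and 3 and 0.07 in K36M replicate 3. The other 3 libraries had slopes of -0.002 in K9M replicate 2, -0.0199 in K9M replicate 3 and -0.0049 in K36M replicate 2. Subtracting this trend from each library gave 0.49 for Phf8 (limma adjusted p = 0.0853), -0.44 for Kdm4b (0.124) and 0.32 for Cbx5 (0.193) in K36M against rtTA, all still uncalled.

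**Figure D3:**
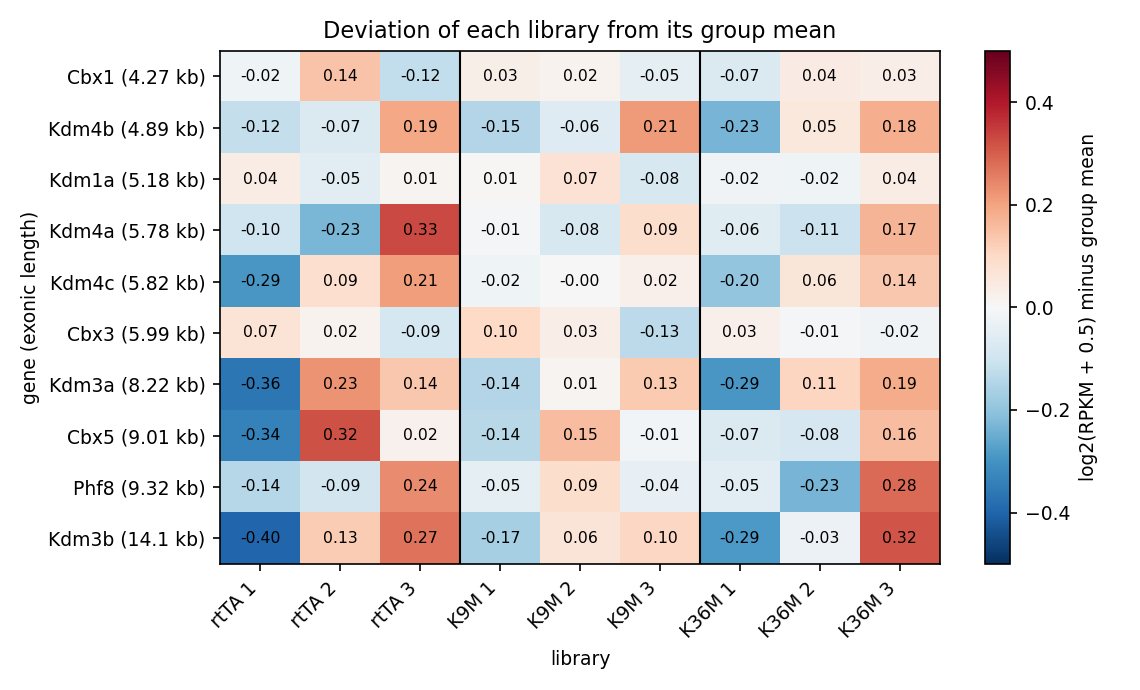
Deviation of each library (columns) from its group mean on the log2(RPKM + 0.5) scale, for the 10 genes ordered by exonic length in kilobases (rows, shortest at the top). Color and printed values give the same number. Kdm3a and Kdm3b are below their group mean in replicate 1 of all 3 groups, down to -0.40 for Kdm3b in rtTA, while Kdm1a stays within 0.08 of its group mean in all libraries.

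Other H3K9 demethylases were looked at too. The share of all tested genes called was 0.116% in K9M against rtTA, 1.5% in K36M against rtTA and 2.52% in K36M against K9M. For 3 tested genes, 0 calls lies near these shares. Of Jmjd1c, Hr, Kdm4d, Kdm7a and Phf2, 3 passed the filter and 0 were called by limma in any comparison, with 1 at an unadjusted p under 0.05 in each mutant group against rtTA. The share of all tested genes at that p was 7.11% in K9M and 19.1% in K36M against rtTA. Kdm7a, which removes dimethyl marks from lysines 9 and 27, stood at 1.81 ± 0.248 RPKM in K36M and 3.16 ± 0.787 RPKM in rtTA (SD, n = 3), a fold change of -0.65 (limma adjusted p = 0.113). Jmjd1c, a relative of Kdm3a, stood at 7.06 ± 1.82 and 8.83 ± 2.35 RPKM (-0.30, adjusted p = 0.551). The medians of the 3 tested genes were -0.17 in K9M and -0.30 in K36M against rtTA and -0.13 in K36M against K9M.

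On the side that reads and writes the mark, no gene was called by limma either. Of all tested genes, 0.116% were called in K9M against rtTA, 1.5% in K36M against rtTA and 2.52% in K36M against K9M. For the counts that follow, the share of all tested genes at an unadjusted p under 0.05 was 7.11% in K9M against rtTA. It was 19.1% in K36M against rtTA and 18.8% in K36M against K9M. Of 18 HP1 partner genes, the number at an unadjusted p under 0.05 was 1, 6 and 4 in these 3 comparisons, with medians of -0.05, 0.08 and 0.13. Those with the smallest p were Chaf1b, a subunit of the chromatin assembly factor CAF-1, at 23.3 ± 0.757 RPKM in K36M against 18.8 ± 0.501 in rtTA (SD, n = 3; 0.30, limma adjusted p = 0.101), and Incenp, of the chromosomal passenger complex, at 51.6 ± 5.32 against 35.6 ± 6.75 RPKM (0.54, adjusted p = 0.107). Of 8 other readers and HUSH complex genes, 3 passed at an unadjusted p under 0.05 in K36M against rtTA and 1 in K36M against K9M, among them Uhrf1, which links DNA methylation upkeep to this mark (73.2 ± 7.5 RPKM in K36M and 52.6 ± 12.3 in rtTA, adjusted p = 0.18), and Cdyl (5.07 ± 0.41 RPKM in K36M and 6.66 ± 0.254 in K9M, adjusted p = 0.204). The medians of these 8 were -0.03, 0.05 and 0.18 in the 3 comparisons. Of 9 methyltransferase and partner genes, 0 passed even without adjustment, with medians of -0.0007, 0.12 and 0.06. The smallest p belonged to Ehmt2 (G9a), at 38.1 ± 2.66 RPKM in K36M and 31.4 ± 1.97 in K9M (adjusted p = 0.282), and to Suv39h2, at 3.22 ± 0.263 RPKM in K36M and 2.50 ± 0.43 in rtTA (adjusted p = 0.33).

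Among these lists of chromatin genes, calls appeared only in the 14 partners of KDM1A, and only in K36M against K9M, where Hdac1 was higher. In that comparison 2.52% of all tested genes were called. The medians of these 14 were -0.09 in K9M and -0.0049 in K36M against rtTA and 0.05 in K36M against K9M. Rcor1, the CoREST scaffold, and the repressors Gfi1 and Gfi1b were uncalled. Against rtTA, 0 of the 14 were called by limma, with 1 in K9M and 4 in K36M at an unadjusted p under 0.05. Of all tested genes, 7.11% and 19.1% reached that p.

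Hdac1 (ENSMUSG00000028800, chromosome 4, 129516104 to 129542713, minus strand), the histone deacetylase of the same complexes, stood at 46.4, 46.2 and 32.8 RPKM in rtTA, 35.2, 23.0 and 35.4 RPKM in K9M and 58.6, 54.0 and 57.4 RPKM in K36M. The K36M libraries were above all others, and the difference from K9M was called (0.88, SE 0.19, limma adjusted p = 0.0478). This value is uncertain, because Gm10093, a processed pseudogene on chromosome 17 (78491582 to 78493025, plus strand), carries 1444 of the 1449 coding bases of Hdac1 with 9 substitutions. The stretch from base 425 to base 505 of the Hdac1 coding sequence holds 5 of them, T441A, A460G, C465T, C472T and T482C, shown in capitals.
Hdac1: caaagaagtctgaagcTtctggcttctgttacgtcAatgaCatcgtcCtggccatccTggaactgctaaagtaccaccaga
Gm10093: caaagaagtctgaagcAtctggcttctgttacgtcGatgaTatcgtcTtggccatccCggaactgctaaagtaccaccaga
Gm10093 stood at 1.65, 1.02 and 15.2 RPKM in rtTA, 18.3, 39.8 and 17.9 RPKM in K9M and 1.81, 1.01 and 0.492 RPKM in K36M. The libraries high in the copy were those low in Hdac1. Why the copy's level differed between libraries was not tested. In K9M replicate 2, where Hdac1 was lowest, the copy held 42% of the reads of the pair, and in K36M it held at most 1.28%. These shares count all 3445 exonic bases of Hdac1, while the copy spans 1444. Summing the pair, as RPKM times exonic length in kilobases, gave 162, 160.5 and 135 in rtTA, 148, 137 and 148 in K9M and 204, 188 and 198.5 in K36M. The summed difference between K36M and K9M was 0.45 and no longer called (SE 0.099, limma adjusted p = 0.0525), though the groups still did not overlap. The call was also lost without any single K9M or K36M library, without rtTA replicate 2, and with no filter, no trend, quantile normalization or median centring.

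**Figure D4:**
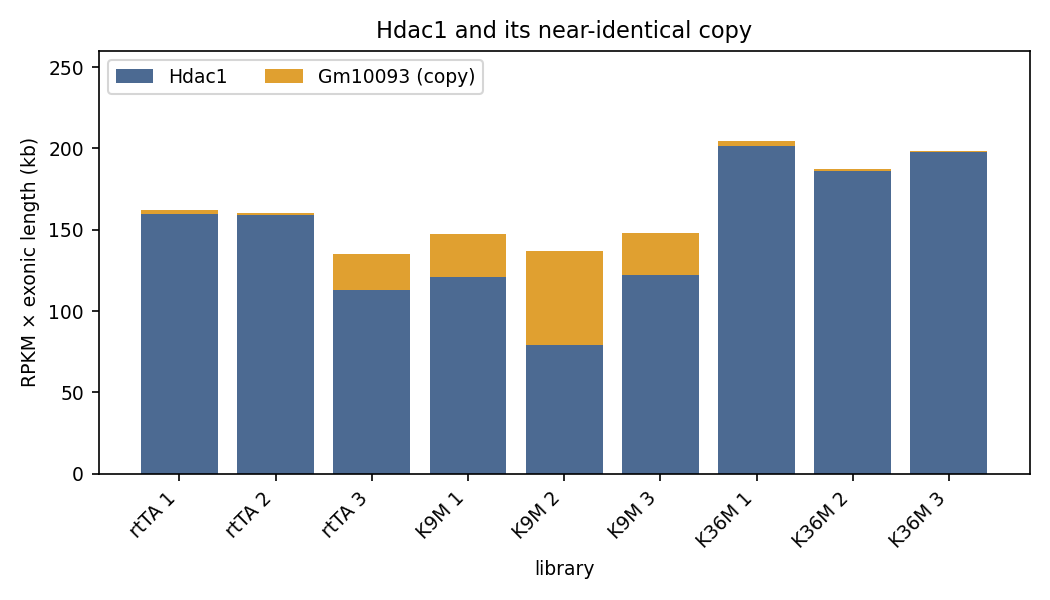
RPKM times exonic length in kilobases, which approximates reads scaled to library size (vertical axis from 0), of Hdac1 and of its copy Gm10093, stacked, for each library. The copy is visible mainly in rtTA replicate 3 and the 3 K9M libraries, with 57.4 in K9M replicate 2, and the K36M libraries have the highest sums.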

How the data were processed

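RNA sequencing was done on LSK cells from 9 mice, 3 per group. The authors deposited RPKM values for 37882 genes. The submitters' processing notes name CASAVA 1.7, STAR and mm10. The counting tool, its treatment of reads with several matches, the annotation and the STAR version were not given in the sources used here. PolyA RNA and a total RNA kit are both named in the labels. Values were analysed as log2(RPKM + 0.5), which understates changes of low genes, for 12926 genes that reached an RPKM of 1 in 3 or more libraries. All 10 members passed. limma 3.58.1 (R 4.3.3) fitted group means to all 9 libraries, with a mean-variance trend, 6 residual degrees of freedom and two-sided tests, and was tested on simulated data. Coordinates and lengths are from GENCODE M21; copies were found with blastn 2.17.0. Between 50.5% and 52.1% of low values were whole reads within 0.02, against 4% by chance, so recovered depths are approximate.

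All members are named with every library's value. Of each other list, called genes are named, or, with none called, the 2 with the smallest p (2 genes this rule names are not reported here); for each member, the 2 genes with the most similar levels. The members and lists were chosen with earlier results of these data known. Replicate numbers were checked for pairing: deviations of same-numbered rtTA and K36M libraries had correlations of 0.414, 0.369 and 0.377, all above 0.1, but those of K9M with rtTA (0.162, 0.0599 and 0.0174) and with K36M (0.0741, -0.171 and 0.053) were not all above it. The pairing thus comes from the data, not the labels. With replicate as a block, 301 genes were called in K36M against rtTA in place of 194. Alternatives were other pseudocounts, filters, scalings and priors, library weights, the replicate block, fits to only the groups compared, and leaving out pseudogenes or single libraries. Removing length trends and summing copies were added after seeing the data.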

Additional observations from a re-analysis of the deposited data

Results flagged for a closer look

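The genes below were picked out because their K36M and K9M changes, against the same rtTA libraries, differed by a test of the difference, which here equals K36M against K9M. Hdac1, which has the near-identical copy Gm10093, differed by 0.88 (limma adjusted p = 0.0478). Pdk1, which restrains the entry of pyruvate into mitochondria and is a hypoxia target, differed by -0.82, at 13.2 ± 0.96 RPKM in K36M and 23.7 ± 1.71 in K9M (SD, n = 3; limma adjusted p = 0.0232). Plk1, a mitotic kinase, differed by 0.67, at 38.0 ± 4.94 and 23.7 ± 3.33 RPKM (limma adjusted p = 0.0384). Ly86, a myeloid marker, differed by 1.95, at 23.2 ± 9.42 and 5.31 ± 0.804 RPKM (limma adjusted p = 0.038). Of the 6 monocyte and dendritic markers tested, 4 had positive and 2 negative fold changes (median 0.79), and Ly86 was the 1 called, while Cd68 was uncalled at -0.86 (adjusted p = 0.114). The beta-globin gene Hbb-bt differed by 3.10, at 163 ± 54.7 and 23.2 ± 17.2 RPKM (limma adjusted p = 0.0336). The other globin genes of the erythroid list were uncalled with negative values, Hba-a1 at -0.43 (adjusted p = 0.533) and Hbb-bs at -0.33 (0.541). Each of these 5 calls was lost in some alternatives, from 6 of 23 for Pdk1 and Ly86 to 12 of 23 for Hdac1.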

How the results depend on the processing

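No member was called in any of 690 alternative values (30 fold changes under 23 alternatives). The smallest adjusted p was 0.0628, for Kdm4b in K36M against rtTA with the replicate block (-0.44, SE 0.096), where Phf8 had 0.0966 and Cbx5 0.196; the block changed no member's call. Fold changes kept their direction in 17 of 30 cases, and 28 reversals occurred in the other 13, all uncalled, 23 of them on leaving out 1 library; the cause was not tested. Quantile normalization turned Cbx3 in K36M against rtTA to -0.0907. Library weights turned Kdm4a to -0.117 (K9M against rtTA) and -0.0557 (K36M against rtTA), Cbx1 to 0.0357 (K36M against rtTA) and Kdm3b to 0.0141 (K36M against K9M). Leaving out 1 library gave, in K9M against rtTA, ranges of -0.0762 to 0.252 for Cbx5, -0.277 to 0.0159 for Kdm3a, -0.312 to 0.0226 for Kdm3b and -0.103 to 0.177 for Kdm4a. In K36M against rtTA they were -0.0748 to 0.0573 for Cbx1, -0.0119 to 0.0675 for Cbx3, -0.196 to 0.130 for Kdm3a, -0.313 to 0.0291 for Kdm3b and -0.0319 to 0.247 for Kdm4a. In K36M against K9M they were -0.0122 to 0.227 for Kdm3a, -0.159 to 0.143 for Kdm3b, -0.0145 to 0.125 for Kdm4a and -0.151 to 0.0155 for Kdm4c. Counts over all genes moved more. Against 15 calls in K9M against rtTA, 194 in K36M against rtTA and 326 in K36M against K9M, leaving out 1 library gave 3 to 32, 10 to 397 and 15 to 506, and the other alternatives 1 to 62, 26 to 301 and 118 to 595 (595 with the replicate block). The 0 calls among HP1 partners became 1 in K36M against K9M with library weights and without rtTA replicate 1 or K36M replicate 2, and 1 KDM1A partner was called in K36M against rtTA without K36M replicate 2. RPKM without counts, 3 mice a group and unknown handling of reads shared with copies limit what can be detected.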

Other observations

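Beside the counts given here, 19.1% of all tested genes in K36M and 7.11% in K9M against rtTA reached an unadjusted p under 0.05. Proliferation genes had positive fold changes in K36M. All 13 genes of that list had a positive fold change against rtTA, with a median of 0.43 beside 0.0153 over all tested genes and 10 at an unadjusted p under 0.05, but 0 were called by limma. Between 0 and 4 were called on leaving out 1 library. In K9M against rtTA 10 of 13 were positive (median 0.15, 0 called, 2 at an unadjusted p under 0.05), and in K36M against K9M 11 of 13 (median 0.23, 1 called, Plk1). Ccnb1, which encodes cyclin B1, stood at 27.8 RPKM in K36M, 18.6 in K9M and 18.0 in rtTA (limma adjusted p = 0.0678 against rtTA). It was chosen after its values were seen. Hypoxia response genes, among which KDM3A is a known target and effector, showed no common direction: 4 of 13 were positive in K36M against rtTA (median -0.06, 0 called by limma, 3 at an unadjusted p under 0.05, and 2 called with the replicate block) and 7 of 13 in K9M (median 0.03, 0 called, 2 at an unadjusted p under 0.05). In K36M against K9M 1 was called, Pdk1.

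Markers of other cells gave the remaining calls among the lists. With all 9 libraries, 7.11% of all tested genes in K9M and 19.1% in K36M reached an unadjusted p under 0.05 against rtTA. All 10 granulocyte markers had negative fold changes against rtTA, with medians of -1.57 in K9M (0 called by limma, 2 at an unadjusted p under 0.05) and -2.70 in K36M (1 called, 9 at an unadjusted p under 0.05). Without rtTA replicate 3, the library with the highest granulocyte sum, the medians were -0.64 (0 called, 0 at an unadjusted p under 0.05) and -1.81 (1 called, 7 at an unadjusted p under 0.05). Against rtTA, K36M was lower in the granulocyte gene Ltf (4.02 ± 1.81 against 114 ± 137 RPKM, SD, n = 3; -4.01, limma adjusted p = 0.037) and in the macrophage marker Cd68 (3.37 ± 1.37 against 9.07 ± 2.2 RPKM; -1.34, adjusted p = 0.0427), and higher in Hbb-bt (12.2 ± 2.3 RPKM in rtTA; 3.64, adjusted p = 0.0267). The 6 monocyte and dendritic markers did not all share the direction of Cd68: 4 had positive fold changes (median 0.33), with Ly86 at 0.91 (adjusted p = 0.245) and Csf1r at 0.81 (0.37), both uncalled. The call of Ltf was lost in 10, that of Cd68 in 10 and that of Hbb-bt in 7 of 23 alternatives. Of 8 sort and stem or progenitor markers, 7 had negative fold changes in K36M against rtTA (median -0.39, 0 called by limma). At an unadjusted p under 0.05, 4 of the 8 were lower and 1 was higher. Among them Kit was uncalled at 66.2 ± 11.3 RPKM in K36M and 95.4 ± 7.17 in rtTA (-0.54, adjusted p = 0.0918). Cd48 was also uncalled, at 52.5 ± 10.1 in K36M and 87.2 ± 14 in K9M (-0.73, adjusted p = 0.066). All 5 tested B lineage markers had negative fold changes in K9M against rtTA (median -1.25, 0 called by limma, 4 at an unadjusted p under 0.05). In K36M against rtTA 3 of the 5 were negative (median -0.72, 0 called, 2 at an unadjusted p under 0.05). The B lineage gene Cd79a (-2.0, adjusted p = 0.0821) was uncalled in K9M against rtTA, and so were the Y-linked Eif2s3y and Ddx3y (adjusted p = 0.736 and 0.783). Of the T lineage markers only Cd4 passed the filter, at 2.61 ± 0.147 RPKM in K36M and 1.50 ± 0.21 in rtTA (adjusted p = 0.0905).

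The genes whose levels were most like each member over the 9 libraries, by Pearson's r of log2 values, are given as a description, since all genes share the libraries and their length trends. For the readers they were Vegfb (0.933) and Crk (0.897) for Cbx1, Lage3 (0.920) and Snx3 (0.906) for Cbx3, and Pdcd11 (0.988) and Lmnb2 (0.983) for Cbx5. For the KDM3 genes they were Zfp157 (0.987) and Inpp5e (0.984) for Kdm3a, and Nipbl (0.984) and Bptf (0.982) for Kdm3b. For the KDM4 genes they were Elf1 (0.959) and Atg13 (0.942) for Kdm4a, Usp32 (0.970) and Dennd1a (0.969) for Kdm4b, and Adcy9 (0.974) and Dnajc1 (0.970) for Kdm4c. Scfd2 (0.950) and Ywhab (0.930) were most like Kdm1a, and Tax1bp1 (0.980) and Hps6 (0.975) most like Phf8.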
